A study of Homo sapiens with 5 samples.

Results

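The genes described here encode proteins of the mitochondrial ribosome. They were chosen by symbol alone, as the rows whose symbol begins with MRPL or MRPS and a digit, which gave 81 of the 19716 genes with a read in any library. Of these, 77 were protein-coding, 48 with an MRPL symbol, given for the large subunit, and 29 with an MRPS symbol, given for the small subunit, 1 was the antisense RNA MRPL23-AS1 and 3 were pseudogenes. RNA was sequenced from HEK293T cells, a transformed human embryonic kidney line, in 5 libraries with 1 library per group. Cells of 4 libraries carried 5 sgRNAs against uPA (the gene PLAU) and a dCas9-BFP protein that ended in EGFP or in the catalytic domain of DNMT1, DNMT3A or DNMT3B, expressed from a PGK promoter. The control library came from cells given pUC19, an empty cloning plasmid, in place of guides and fusion. All 5 groups received 1 ug of plasmid with X-tremeGENE 9 and were harvested after 48 hours. The labels give a sort for BFP-positive cells in all groups, yet pUC19 carries no BFP gene. A difference between pUC19 and the fusions can therefore hold the sort, the guides, dCas9 and the plasmid together, and these cannot be told apart.

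The mitochondrial ribosome translates the few messenger RNAs encoded by mitochondrial DNA, all of which specify subunits of the respiratory chain and ATP synthase. Its ribosomal RNAs are made inside the organelle, whereas every one of its proteins is encoded in the nucleus, made in the cytosol and imported. The small subunit binds the messenger and decodes it, and the large subunit forms the peptide bond at a site facing the inner membrane. The nuclear genes are housekeeping genes with CpG-rich promoters, and factors such as NRF1, the ETS protein GABP and YY1 are known to act at many of them.

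The deepest library, pUC19, held 1.38 times the reads of the shallowest, EGFP, and the 77 protein-coding genes took up 134755 reads in EGFP and 217085 in pUC19 (0.513% and 0.601% of each total). The kidney epithelial keratin KRT18 lay between 90 and 120 TPM (a read count per length, scaled to the same sum in each library) in the 5 libraries and the neuronal NEFM, which HEK293T cells are known to express, between 34.3 and 193 TPM, highest in pUC19. Markers of blood (PTPRC, HBB) and liver (ALB) did not exceed 0.43 TPM, and of the fibroblast collagens COL1A2 had no read and COL1A1 lay between 3.87 and 7.97 TPM.

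The promoters are shown first because 2 motifs were found in a larger share of them than of other promoters, although no motif was common to all. A window from 250 bases before to 50 bases after the annotated start was found for 69 of the 77 protein-coding genes in RefSeq (GRCh38.p14). The letters AAGATGGCG, a core of the YY1 motif, were searched on both strands and were found in 13 of the 69 windows (18.8%), against 3.77% of the 11445 promoters of genes of at least 1 TPM and 1.85% of all 27305 promoters. In 9 of the 13 genes the ATG inside these letters was the annotated start codon of a GENCODE transcript, so that the match covered the first codons of the protein. The windows around the matches are given below in the direction of the motif, with the matched letters in capitals; the match in MRPL22 lay too near the end of its window to be shown.
MRPS30, 13 bases past the start (chr5:44808950-44808978, + strand): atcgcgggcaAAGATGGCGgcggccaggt
MRPL50, 23 bases past the start (chr9:101398577-101398605, - strand): gatctcatcgAAGATGGCGgcgcgatctg
MRPS24, 19 bases past the start (chr7:43869480-43869508, - strand): cgcttggcccAAGATGGCGgcctccgtgt
MRPL46, 8 bases past the start (chr15:88467362-88467390, - strand): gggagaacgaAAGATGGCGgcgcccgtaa
MRPL38, 6 bases past the start (chr17:75904860-75904888, - strand): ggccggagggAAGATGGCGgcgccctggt
MRPL42, 8 bases past the start (chr12:93467512-93467540, + strand): ggattgaaacAAGATGGCGggttcgtggt
MRPS10, 9 bases past the start (chr6:42217834-42217862, - strand): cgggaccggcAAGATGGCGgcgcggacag
MRPS18A, 9 bases past the start (chr6:43687764-43687792, - strand): taggtttttgAAGATGGCGgccctcaagg
MRPS18B, 23 bases past the start (chr6:30617853-30617881, + strand): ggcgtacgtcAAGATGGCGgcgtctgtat
MRPL36, on the reverse strand before the start (chr5:1799855-1799883, - strand gene): gccaggaaggAAGATGGCGgcgggggggg
MRPL32, on the reverse strand before the start (chr7:42932143-42932171, + strand gene): tcttcgggtaAAGATGGCGgagcgcgggt
MRPL52, the first of 2 matches before the start (chr14:22829779-22829807, + strand): acgatgacccAAGATGGCGgagccgtgat
MRPL52, the other match (chr14:22829813-22829841, + strand): acccagattcAAGATGGCGacttcctgct

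Of the 14 matches, 12 ran in the direction of the gene and 10 began past its start. The ETS letters CCGGAAG were found in 28 of the 69 windows (40.6%), against 18.5% of the promoters of genes of at least 1 TPM and 10.7% of all promoters. Unlike the YY1 letters they had no favoured direction, with 17 of 37 matches along the gene, and 4 of the 37 began past the start. The E-box CACGTG, which MYC binds, was in 7 windows (10.1%, against 10.1% of genes of at least 1 TPM), and the NRF1 core CGCATGCG was in 3 (4.35% against 3.88%). No motif of the 4 was found in 27 windows. CpG-rich windows made up 79.7% of these windows and 75.1% of those of genes of at least 1 TPM. A match is a run of letters and was not tested as a binding site, and methylation was not measured in these libraries.

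All 77 protein-coding genes were expressed at no less than 10 TPM in each library, and the lowest read count of any of them in any library was 124. Their summed level was 10286 TPM in pUC19, 9791 TPM in DNMT3A, 9310 TPM in DNMT1, 9301 TPM in DNMT3B and 8994 TPM in EGFP, so that the highest sum was 1.14 times the lowest. This group therefore took about the same part of the transcriptome in every library, with pUC19 at the top. The median gene stood at 116 TPM in pUC19 and between 95 and 114 TPM in the fusions, and the median was 127 TPM for MRPL and 103 TPM for MRPS genes in pUC19.

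MRPL37, a large subunit protein of the metazoan ribosome, had the highest level, with 569 TPM in pUC19 and 595 to 681 TPM in the fusions. It was followed in pUC19 by MRPL3 (349 TPM), one of the conserved large subunit proteins, MRPS15 (294 TPM), MRPS34 (272 TPM) and MRPL40 (260 TPM). MRPL37 and MRPS34 were among the 5 highest genes in all 5 libraries. The lowest in pUC19 were MRPS24 (20 TPM), MRPL19 (22.3 TPM), MRPL57 (29.6 TPM), MRPL35 (30.4 TPM) and MRPS36 (32.3 TPM); MRPS36 is named KGD4 in current RefSeq, after its place in the 2-oxoglutarate dehydrogenase complex. The ends of this order were stable, since MRPL19, MRPL35 and MRPS36 were among the 5 lowest everywhere and the rank correlation of the 77 levels lay between 0.904 and 0.987 over the 10 pairs of libraries, which share gene length and sequence.

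**Figure D1:**
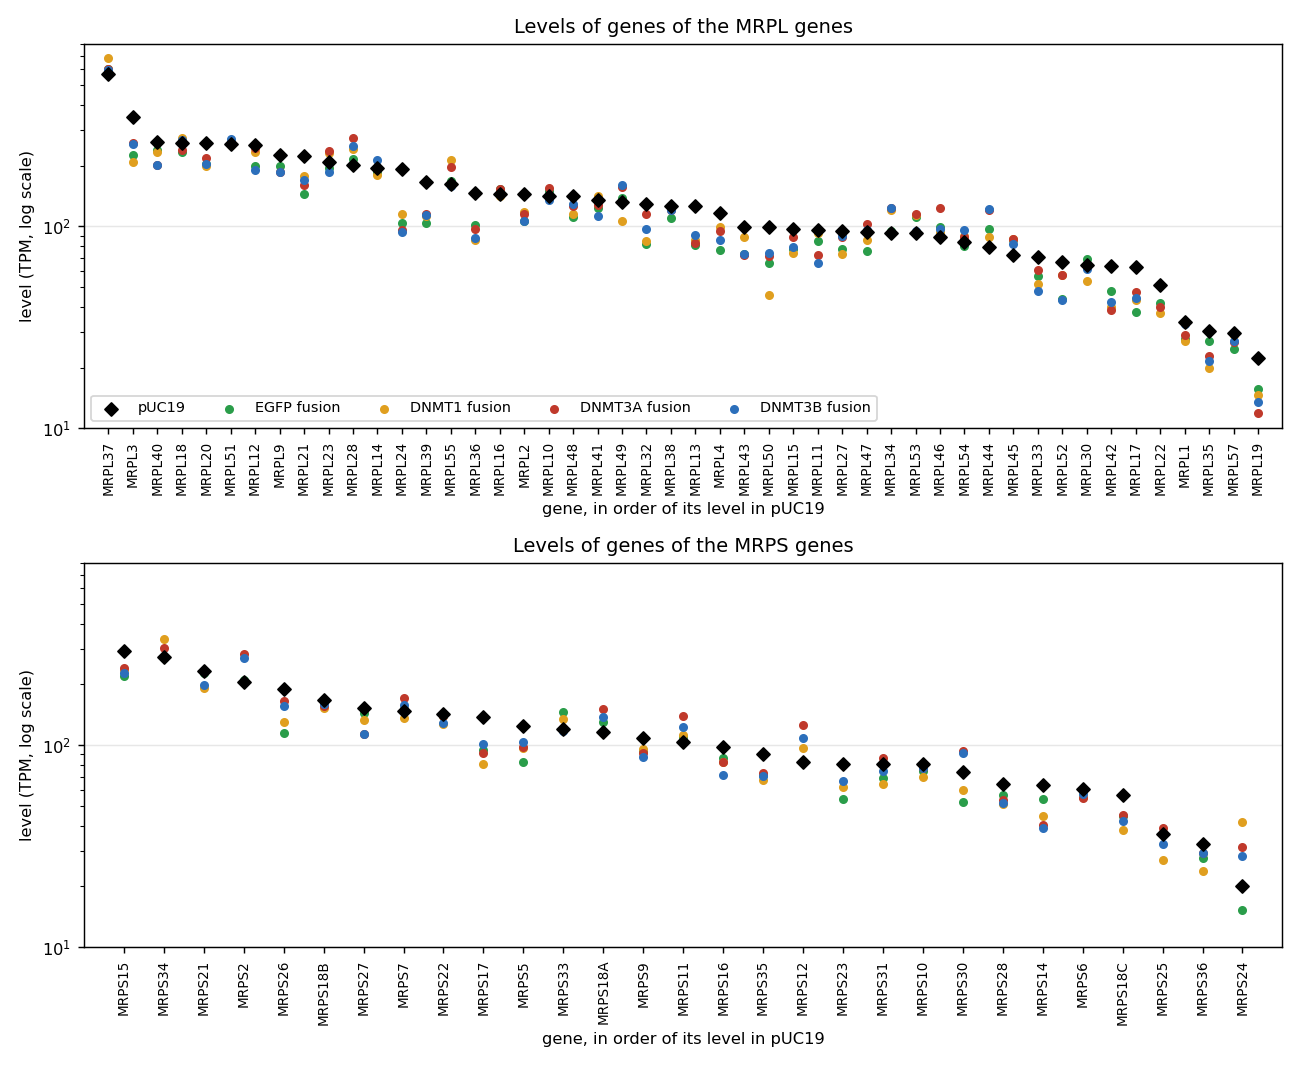
Level (TPM, log scale) of each MRPL gene (upper panel) and MRPS gene (lower panel) in the 5 libraries, with 1 point per library and genes in order of the pUC19 level. MRPL37 leads at 569 TPM in pUC19, MRPL19, MRPS24 and MRPS36 are at the low end, and the black pUC19 diamond is the highest point of its column for 46 of the 77 genes.

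Levels per gene varied little. Over the 5 libraries the ratio of the highest to the lowest TPM had a median of 1.35 and was under 1.5 for 54 of the 77 genes (70.1%), against 50.9% of the 8331 genes of at least 10 TPM in every library. MRPL51 was the steadiest (ratio 1.08, 252 to 271 TPM), with MRPL16 next (1.08). The ratio reached 2 or more in 3 genes, MRPS24 (2.73), MRPL50 (2.17) and MRPL24 (2.07), against 12.4% of the genes of at least 10 TPM.

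To see which of these genes differed between each fusion and pUC19, reads were compared by a two-sided exact conditional binomial test between the 2 libraries, with calls set at an adjusted p no higher than 0.001 and a change of 2-fold or more on the scale of TPM + 0.1. With 1 library per group, this test compares libraries and not conditions and has no replicate check. Few genes passed. Of the 77, 2 were called in DNMT1 (background over all genes 5.16%), 1 in DNMT3A (9.36%), 1 in DNMT3B (8.76%) and none in EGFP (5.7%). The called genes were MRPL50 and MRPS24 in DNMT1, and MRPL24 in both DNMT3A and DNMT3B. With an assumed coefficient of variation of 0.2 between libraries, none of these calls was left. With 1 library on each side, changes near 2-fold can hardly pass at that setting, so this loss says little about these genes.

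MRPL24 (chr1:156707095-156711382, minus strand, GRCh37) encodes a conserved large subunit protein, the relative of a bacterial protein that starts assembly of that subunit. Its level was 193 TPM in pUC19, 104 TPM in EGFP, 115 TPM in DNMT1, 96.0 TPM in DNMT3A and 93.2 TPM in DNMT3B. The 4 fusions lay close together and far below pUC19, at 36.2 to 48.1 CPM (a share of the total reads) against 79.6 CPM in pUC19 (95% exact interval 76.7 to 82.6, which covers counting error only). The log2 ratio to pUC19 was -1.01 in DNMT3A (adjusted p = 2.0e-100, exact test) and -1.05 in DNMT3B (3.6e-111). In EGFP, which carries no methyltransferase domain, it was -0.89, and in DNMT1 it was -0.75, both short of the fold limit. The 2 calls sit at that limit and were lost without the rows of DNMT1, DNMT3A and DNMT3B, which take up reads of the plasmids, and the call in DNMT3A also with TMM scaling and after thinning to the smallest total. The differences of these ratios from those of DNMT3A and DNMT3B were not called between the fusions. The promoter of MRPL24 held none of the 4 motifs. It is printed with its 22 CpG dinucleotides, the substrate of the methyltransferase domains, in capitals (GRCh38.p14, chr1:156741039-156741338, minus strand). The median window of the mitochondrial ribosomal protein genes held 24 and that of genes of at least 1 TPM held 26.
MRPL24 promoter: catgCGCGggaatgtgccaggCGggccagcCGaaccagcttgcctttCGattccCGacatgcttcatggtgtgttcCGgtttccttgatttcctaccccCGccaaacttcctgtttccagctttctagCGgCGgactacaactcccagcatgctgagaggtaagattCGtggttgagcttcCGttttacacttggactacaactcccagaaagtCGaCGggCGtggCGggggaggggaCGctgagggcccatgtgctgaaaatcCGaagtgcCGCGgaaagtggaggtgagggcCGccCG

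MRPL50 (chr9:104149915-104160900, minus strand), a large subunit protein found in animals and not in bacteria, had 99.0 TPM in pUC19, 65.6 TPM in EGFP, 45.7 TPM in DNMT1, 71.2 TPM in DNMT3A and 73.8 TPM in DNMT3B. All 4 fusions were lower than pUC19, and DNMT1 was the lowest, with a log2 ratio of -1.11 (adjusted p = 2.7e-61, exact test). This call was lost with TMM scaling. Its start lay 233 bases from that of ZNF189 on the other strand. ZNF189 had 20 TPM in pUC19, 18.3 TPM in DNMT1 and 33.0 TPM in EGFP.

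MRPS24 (chr7:43906157-43909492, minus strand), a small subunit protein at the messenger entry channel, was the one called gene that was higher. Its level was 20 TPM in pUC19, 15.4 TPM in EGFP, 41.9 TPM in DNMT1, 31.3 TPM in DNMT3A and 28.4 TPM in DNMT3B. DNMT1, DNMT3A and DNMT3B were above pUC19 and EGFP was below it. In the paper the DNMT1 fusion, like the EGFP fusion, did not significantly raise methylation at uPA, the gene the guides address. That result does not bear on MRPS24, where methylation was not measured in these libraries, and a cause was not tested. The log2 ratio to pUC19 was 1.06 in DNMT1 (adjusted p = 8.4e-19, exact test) and -0.38 in EGFP. Among the 6 pairs of fusions it was also the one gene of the 77 that was called, with a log2 ratio of 1.44 for DNMT1 over EGFP (adjusted p = 1.8e-25; background 1.44%) and 1.02 for DNMT3A over EGFP (3.3e-11; background 3.97%), the latter lost with a pseudocount of 1 TPM and after thinning. The other 4 pairs gave no call, against backgrounds of 3.59% for DNMT1 against DNMT3A, 3.54% for DNMT1 against DNMT3B, 0.215% for DNMT3A against DNMT3B and 3.5% for DNMT3B against EGFP. MRPS24 shares exons with the read-through transcript URGCP-MRPS24, which itself had 3 to 8 reads, and only reads that mapped to 1 place were counted, so the counts of 124 to 371 reads are uncertain. The part of its transcript covered by reads was 58.7% in pUC19, against a median of 97.1% over the 77 genes.

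At a fold limit of 1.5 more genes were called, chiefly lower ones. In DNMT1 9 were lower (background 10.8%) and 1 was higher (4.32%), in DNMT3A 7 were lower (11.4%) and 3 higher (11.1%), in DNMT3B 6 were lower (10.6%) and 1 higher (11.2%), and in EGFP 12 were lower (8.65%) and none higher (7.51%). As shares of the 77 genes the lower counts were 11.7%, 9.09%, 7.79% and 15.6% in that order of fusions, above the background in DNMT1 and EGFP and below it in the others, and the higher counts were below the background in all 4.

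The group as a whole sat slightly below pUC19 in all 4 fusions, although the DNMT3A median turned to 0.01 once GC and length trends were subtracted. The median log2 ratio of the 77 genes was -0.21 in DNMT1 (all genes of at least 1 TPM in either library, -0.14), -0.14 in DNMT3A (all genes -0.03), -0.16 in DNMT3B (all genes -0.02) and -0.20 in EGFP (all genes -0.0045). Lower than in pUC19 were 59, 51, 55 and 58 of the 77 genes in that order of fusions (76.6%, 66.2%, 71.4% and 75.3%), against 62.7%, 51.9%, 51.5% and 50.4% of all genes. With TMM scaling these counts were 47, 47, 54 and 59, and with GC and length trends subtracted they were 45, 38, 44 and 56, so that in DNMT3A the majority turned. These settings also moved all genes. The median of the 77 genes less that of all genes was -0.07, -0.11, -0.14 and -0.19 in the same order. It was -0.07, -0.11, -0.14 and -0.20 with TMM scaling. With GC and length trends subtracted it was -0.06, 0.002, -0.07 and -0.13. In a given fusion 84.4% to 90.9% of the 77 genes were within 1.5-fold of pUC19, against 66.2% to 75.2% of all genes. The latter reach down to 1 TPM, whereas all 77 stood at no less than 10 TPM. The pUC19 level lay above all 4 fusions for 46 of the 77 genes (59.7%, background 32.6%) and below all 4 for 9 (11.7%, background 23.3%). With GC and length trends subtracted, 29 (37.7%, all genes 29.8%) lay below pUC19 in all 4 fusions and 14 (18.2%, all genes 28.6%) above it. These counts rest on 1 pUC19 library that enters every comparison. By symbol, 28 of 48 MRPL and 18 of 29 MRPS genes were highest in pUC19.

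**Figure D2:**
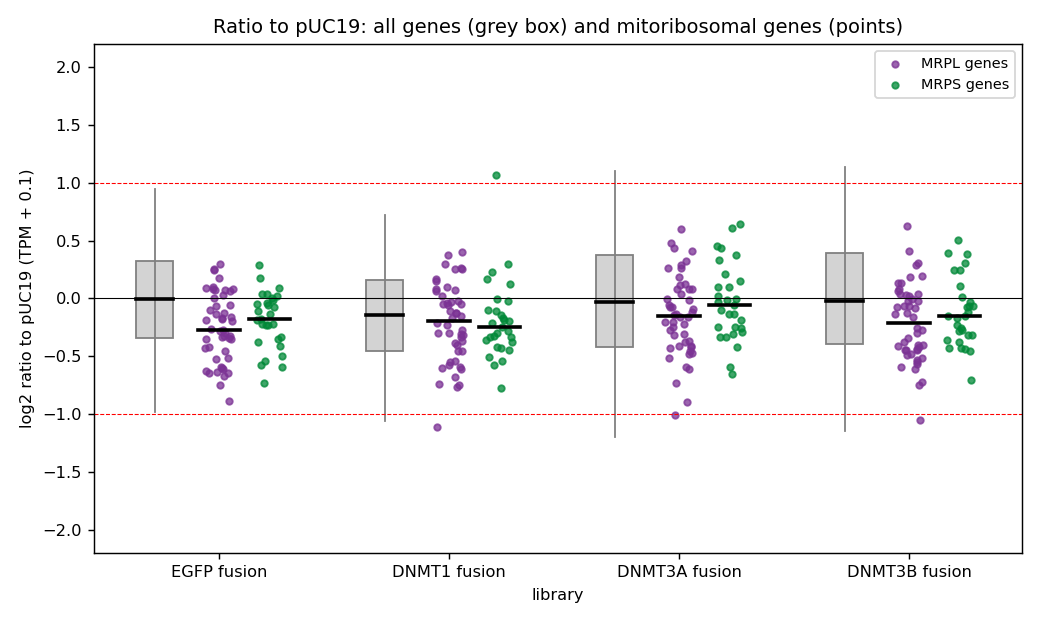
log2 ratio to pUC19 (TPM + 0.1) in each fusion library, with 1 point per gene, black lines at the medians, and a grey box for all genes of at least 1 TPM (quartiles, with a line from the 5th to the 95th percentile); dashed lines mark a fold of 2. The medians of the MRPL and MRPS genes lie below 0 in all 4 fusions (with no correction for GC content, which turned the DNMT3A median of all 77 genes to 0.01), and the points beyond the dashed lines are MRPL50 and MRPS24 in DNMT1 and MRPL24 in DNMT3A and DNMT3B.

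The genes whose 4 ratios all lay farthest below 0 were MRPL24, MRPL36, MRPL19, MRPL39 and MRPL13, all of the large subunit. MRPL36, one of the smallest large subunit proteins, had 146 TPM in pUC19 and 86.1 to 102 TPM in the fusions. MRPL19, a conserved protein at the subunit interface, had 22.3 TPM in pUC19 and 11.9 to 15.6 TPM in the fusions. MRPL39 had 165 TPM in pUC19 and 104 to 116 TPM in the fusions, and MRPL13 had 127 TPM against 80.9 to 90.9 TPM. That every fusion lay below pUC19 in these genes follows from how they were chosen. The genes whose ratios all lay farthest above 0 were MRPL45, MRPL44, MRPL28, MRPS11 and MRPL46. MRPL45, which ties the ribosome to the inner membrane, had 72.4 TPM in pUC19 and 82.2 to 86.6 TPM in the fusions. MRPL44, a protein with an RNase III fold, had 79.0 TPM in pUC19, 97.2 TPM in EGFP, 88.6 TPM in DNMT1, 120.0 TPM in DNMT3A and 121.7 TPM in DNMT3B. MRPL46 and MRPS11 start 320 bases apart on opposite strands of chromosome 15. MRPL46 had 93.3 to 123 TPM in the fusions against 88.1 TPM in pUC19, and MRPS11 had 110.0 to 140 TPM against 103 TPM. That every fusion lay above pUC19 in these higher genes again follows from how they were chosen.

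**Figure D3:**
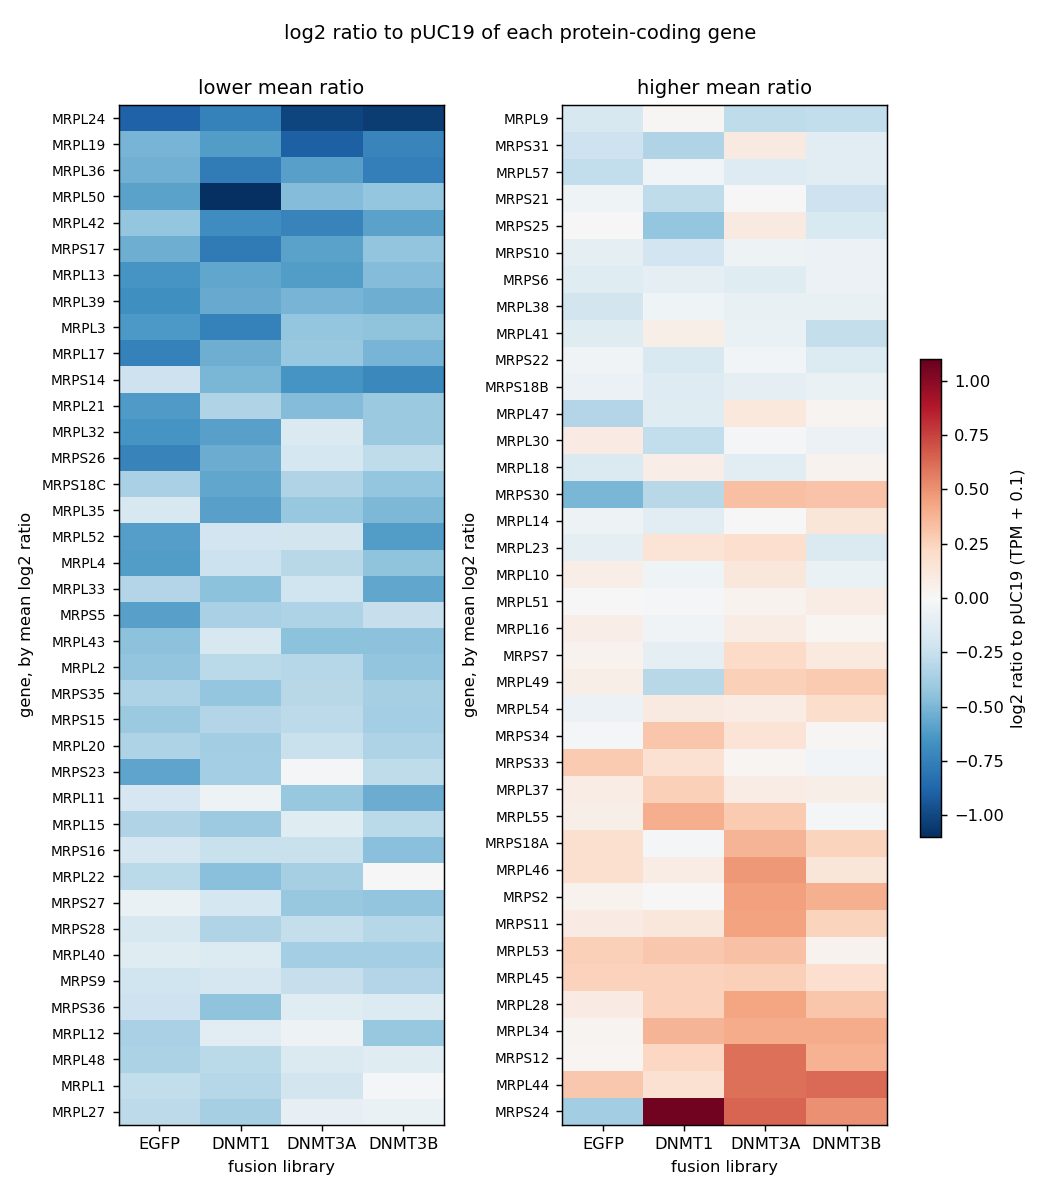
log2 ratio to pUC19 (TPM + 0.1, colour) of the 77 genes in the 4 fusion libraries, with genes in order of their mean ratio. MRPL24, MRPL19 and MRPL36 are blue in every column, MRPL44 is red in every column, MRPS24 is blue in EGFP and red in the other 3, and MRPS30 is blue in EGFP and DNMT1 and red in DNMT3A and DNMT3B.

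To set the distance from pUC19 against the spread among the fusions, the 4 fusions were fitted as one arm and pUC19 as the other with edgeR's quasi-likelihood test. The 4 constructs differ from each other and are no replicates, and the lone pUC19 library is taken to vary as they do. None of the 77 genes passed an adjusted p under 0.05 (background 0.737% of 16001 genes), 10 were lower and 0 higher at an unadjusted p under 0.05 (13% of the 77 against 18.0% of all genes), and DESeq2 called 1, MRPL24 (1.30% of the 77, background 6.51%). The smallest adjusted p belonged to MRPL24, with a log2 fold change of -0.86 (SE 0.21, adjusted p = 0.094). It was followed by MRPL36 (-0.61, 0.174), MRPL19 (-0.63, 0.176), MRPL42 (-0.55, 0.185) and MRPL3 (-0.51, 0.192). MRPL24, MRPL36 and MRPL19 were also among the genes farthest below 0 above, from the same libraries. The higher genes with the smallest p were MRPL44 (0.48, adjusted p = 0.297), MRPL28 (0.33), MRPL34 (0.37), MRPS12 (0.38) and MRPL45 (0.29).

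The constructs with a de novo methyltransferase domain, DNMT3A and DNMT3B, were then compared with DNMT1 and EGFP. One gene rose past an adjusted p under 0.05 in edgeR, MRPS30 (1.30% of the 77, background 6.9% of 15332 genes), and none fell past it (background 4.15%), and the median log2 fold change was -0.01, as it was over all genes tested. At an unadjusted p under 0.05 there were 5 higher and 4 lower genes (11.7% against 28.8%). MRPS30 (chr5:44809049-44820530, plus strand), which sits in the large subunit despite its name, had 93.2 TPM in DNMT3A and 91.9 TPM in DNMT3B, against 60.1 TPM in DNMT1, 52.4 TPM in EGFP and 74.1 TPM in pUC19. The 2 pairs did not overlap and pUC19 fell between them. The log2 fold change was 0.66 (SE 0.15, adjusted p = 0.027). It was 0.64 without DNMT3A and 0.68 without DNMT3B, in fits that leave 1 library in that arm. The call was lost in both fits, as were most calls over all genes. The promoter of MRPS30 is printed with the YY1 letters in capitals (GRCh38.p14, chr5:44808697-44808996, plus strand).
MRPS30 promoter: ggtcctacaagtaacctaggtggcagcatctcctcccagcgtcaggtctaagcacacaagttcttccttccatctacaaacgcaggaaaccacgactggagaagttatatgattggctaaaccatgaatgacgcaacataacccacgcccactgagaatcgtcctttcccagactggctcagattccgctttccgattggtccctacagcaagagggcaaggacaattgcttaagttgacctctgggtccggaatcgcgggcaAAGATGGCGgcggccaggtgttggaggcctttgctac

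Behind MRPS30 the higher genes with the smallest p were MRPS2 (0.35, adjusted p = 0.083), MRPL44 (0.33, 0.116), MRPL49 (0.33, 0.121) and MRPS26 (0.34, 0.166). MRPS2, a conserved small subunit protein, had 282 TPM in DNMT3A and 270 TPM in DNMT3B, and 206 to 211 TPM in the other 3 libraries. The lower ones were MRPS27 (-0.34, 0.083), an RNA-binding protein with pentatricopeptide repeats, MRPL11 (-0.42, 0.094) of the GTPase-associated centre, MRPS14 (-0.37, 0.110), MRPL40 (-0.29, 0.163) and MRPL19 (-0.30, 0.175). Without overlap, DNMT3A and DNMT3B were both above DNMT1 and EGFP for 28 of the 77 genes (36.4%, background 33.8%) and both below for 11 (14.3%, background 23.6%).

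GC content of the transcript moved with the ratios. Over the 77 genes the rank correlation of the log2 ratio to pUC19 with GC content was 0.57 in DNMT1, 0.43 in DNMT3A, 0.32 in DNMT3B and 0.21 in EGFP, and over all genes it was 0.27, 0.26, 0.23 and 0.03. These are descriptions across genes that share libraries. In DNMT1 the 9 genes of 35 to 40% GC had a median ratio of -0.57 and the 12 genes of 60 to 65% GC had a median of 0.13. After GC and length trends were subtracted, an alternative chosen after seeing the data, the median of the 77 genes was -0.05 in DNMT1, 0.01 in DNMT3A, -0.07 in DNMT3B and -0.13 in EGFP. In the edgeR fit of the 4 fusions against pUC19 the same correction took the median from -0.15 to -0.03. The genes were short, with a median length of 1222 bases against 2911 bases for all genes of at least 1 TPM, and their median GC content of 49.5% was close to that of all such genes (49.1%).

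The ratios differed little with the 2 common motifs. The mean log2 ratio over the 4 fusions had a median of -0.11 in the 13 genes with the YY1 core and -0.16 in the 56 without it, and of -0.13 in the 28 genes with the ETS letters and -0.21 in the 41 without. The 7 genes with an E-box had a median of -0.24 against -0.14 in the other 62, and the 3 genes with the NRF1 core, which were lower expressed at a median of 56.8 TPM in pUC19, had a median of -0.42. One of these 3 is MRPS18C, whose promoter held 3 of the motifs and is printed with the ETS letters, the E-box and the NRF1 core in capitals, in that order (GRCh38.p14, chr4:83455808-83456107, plus strand).
MRPS18C promoter: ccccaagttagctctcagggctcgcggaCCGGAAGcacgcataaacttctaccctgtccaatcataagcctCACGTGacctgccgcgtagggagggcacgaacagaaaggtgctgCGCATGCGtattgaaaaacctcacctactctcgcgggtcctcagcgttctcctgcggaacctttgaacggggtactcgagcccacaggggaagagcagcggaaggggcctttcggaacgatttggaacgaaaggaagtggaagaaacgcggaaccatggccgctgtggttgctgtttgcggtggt

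MRPS18C is 1 of 3 paralogs that come from a single bacterial protein. It had 56.8 TPM in pUC19 and 38.2 to 45.1 TPM in the fusions. MRPS18B had 168 TPM in pUC19 and 152 to 161 TPM in the fusions, and MRPS18A, which like MRPS30 sits in the large subunit, had 116 TPM in pUC19, 114 TPM in DNMT1 and 131 to 151 TPM in the other fusions. The paralogs thus differed in direction, MRPS18C being below pUC19 everywhere and MRPS18A above it in 3 of 4 fusions; none was called. MRPL12, the stalk protein, had 254 TPM in pUC19, 191 TPM in DNMT3B, 199 TPM in EGFP, 233 TPM in DNMT1 and 244 TPM in DNMT3A. MRPS16 (chr10:75008601-75012451, minus strand) lies 656484 bases from the start of PLAU, the gene the guides address. It had 97.9 TPM in pUC19 and 71.4 to 86.0 TPM in the fusions, and its 4 log2 ratios of -0.46 to -0.19 were not called.

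The 77 genes were scattered over 21 chromosomes, with 8 on chromosome 1. A second protein-coding gene started within 1000 bases on the opposite strand, head to head, for 26 of them (33.8%), against 12.5% of the 12384 protein-coding genes of at least 1 TPM. Several partners are themselves mitochondrial, such as SARS2, which charges mitochondrial serine tRNA, beside MRPS12 (181 bases), the helicase gene TWNK beside MRPL43 (46 bases) and NDUFB5 of complex I beside MRPL47 (156 bases). The log2 ratios were compared in the 22 distinct pairs whose partner was matched by symbol to a gene with reads. TWNK was not matched and is not among them. Partner and mitoribosomal gene had ratios to pUC19 of the same sign in 13 of the 22 pairs in DNMT1, 13 in DNMT3A, 10 in DNMT3B and 9 in EGFP. In GENCODE, 30 of the 77 genes overlapped an exon of a gene on the other strand and 18 one on the same strand. Whether the libraries kept strand was not stated, and strand could not separate overlaps on the same strand. Only reads that mapped to 1 place were counted, so reads from shared sequence may be lost or given to the wrong gene. The counts of overlapping genes are therefore less certain. Read coverage of the transcript was low for MRPL22 (38.5% in pUC19), MRPS36 (46.1%) and MRPS18C (47.1%), whose levels per length are therefore less certain.

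Other genes of mitochondrial translation were compared in the same fits. They were 6 mitoribosomal proteins with other symbols, 26 assembly factors, 16 translation factors and 17 mitochondrial aminoacyl-tRNA synthetases. In the edgeR fit of the 4 fusions against pUC19, where 0.737% of all genes passed, 1 of these genes passed. It was MARS2, which charges mitochondrial methionine tRNA and was 19.2 TPM in pUC19 and 4.27 to 5.42 TPM in the fusions (log2 fold change -1.87, adjusted p = 0.018). Among the subunits with other symbols PTCD3, an RNA-binding protein of the small subunit, had 44.5 TPM in pUC19 and 29.4 to 34.0 TPM in the fusions. Among assembly factors MTERFD1 had 52.1 TPM in pUC19 and 28.2 to 37.1 TPM in the fusions, and the rRNA methyltransferase FTSJ2 had 88.9 TPM against 108 to 151 TPM, neither past the threshold. Among translation factors C12orf65, a release factor, had 34.8 TPM against 48.2 to 65.3 TPM, and LRPPRC, which stabilises mitochondrial messengers, had 163 TPM in pUC19, 126 TPM in EGFP, 138 TPM in DNMT1, 88.0 TPM in DNMT3A and 96.2 TPM in DNMT3B. LRPPRC fell in DNMT3A and DNMT3B against DNMT1 and EGFP (-0.58, adjusted p = 0.025, edgeR), as 1 of 16 translation factors, where 4.15% of all genes fell. Most calls of this fit over all genes were lost without DNMT3A or without DNMT3B. In the same fit, in which 6.9% of all genes rose, 5 of 26 assembly factors rose, among them the rRNA methyltransferase RNMTL1 (0.58, 0.029). Of 10 genes of mitochondrial transcription and DNA upkeep none passed against pUC19 and 3 rose in DNMT3A and DNMT3B, against the same 6.9%. MGME1, a mitochondrial exonuclease, stood out by level, at 86.3 TPM in pUC19 and 129 to 197 TPM in the fusions (1.08, adjusted p = 0.079).

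Of 9 genes known to regulate these pathways, 1 fell in the edgeR fit against pUC19, where 0.737% of all genes passed. In DNMT3A and DNMT3B against DNMT1 and EGFP 2 rose (background 6.9%). Most calls of that fit over all genes were lost without DNMT3A or without DNMT3B. MYC, known to drive ribosome and mitochondrial gene expression, had 387 TPM in pUC19 and 65.5 to 88.2 TPM in the fusions, and fell in the edgeR fit (-2.29, adjusted p = 0.009). NRF1 had 19.7 TPM in pUC19, 34.1 TPM in EGFP, 19.1 TPM in DNMT1, 57.3 TPM in DNMT3A and 48.0 TPM in DNMT3B, and rose in DNMT3A and DNMT3B against DNMT1 and EGFP (0.95, 0.026). PPRC1, a coactivator of the PGC-1 family, had 98.5 TPM in pUC19, 58.9 TPM in EGFP, 57.1 TPM in DNMT1, 85.8 TPM in DNMT3A and 130.1 TPM in DNMT3B and rose in the same fit (0.84, 0.020). YY1 (74.7 TPM in pUC19, 79.7 to 102 TPM in the fusions), ESRRA (34.1 TPM against 37.5 to 45.0 TPM) and the GABP subunits GABPA (26.2 TPM against 22.2 to 32.4 TPM) and GABPB1 (25.1 TPM against 20.1 to 29.9 TPM) did not pass in either fit. PPARGC1B (11 TPM in pUC19) and PPARGC1A (2.07 TPM) were lowly expressed and did not pass.

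The nuclear genes of oxidative phosphorylation, whose partner subunits this ribosome makes, had medians below 0 in all 4 fusions, and those of the cytosolic ribosome had a median below 0 in DNMT3B alone. The median log2 ratios to pUC19 of the 78 nuclear subunit genes were -0.18 in DNMT1, -0.22 in DNMT3A, -0.31 in DNMT3B and -0.17 in EGFP. Those of the 77 cytosolic ribosomal protein genes were 0.14, 0.03, -0.09 and 0.07. Of the 78, 1 passed in edgeR against pUC19, SDHA (197 TPM in pUC19, 57.8 to 74.1 TPM in the fusions, -1.50, adjusted p = 0.026). None of the 77 passed, and the background was 0.737% of all genes. The difference between the lists was not tested, and the cytosolic genes stood at a far higher level, with a median of 2302 TPM in pUC19 against 241 TPM and, for the mitochondrial ribosome, 116 TPM.

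The noncoding rows were low. MRPL23-AS1 had 9 reads in pUC19, 2 to 3 in EGFP, DNMT3A and DNMT3B and none in DNMT1, where 3 reads would be 0.108 CPM. MRPL42P5 had 2.71 to 4.12 TPM, MRPL45P2 had 8.0 TPM in pUC19 and 9.86 to 11.4 TPM in the fusions, and MRPS31P5 had 14.1 TPM in pUC19, 18.6 TPM in DNMT3A, 17.1 TPM in DNMT3B, 13 TPM in EGFP and 12.1 TPM in DNMT1. The pseudogenes resemble their parent genes, so unique counting can take reads from either, and their values are uncertain; none was called.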

How the data were processed

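Poly(A) RNA libraries of HEK293T cells were read on an Ion Proton machine. Filtered reads were aligned by the authors with tmap (version not given in the sources used here) to RefSeq RNA sequences of hg19 (GRCh37), and uniquely mapped reads were kept. The authors deposited raw read counts, and a gene missing from a table was set to 0. The TPM deposited beside them is a count per base of gene length, brought to the same sum in each library. The authors also deposited a coverage in percent, not defined further and read here as the covered part of the transcript.

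Groups came from the sample titles. The members and gene lists were chosen with earlier results of these data known. Each pair of libraries was compared by an exact conditional binomial test over all genes with a read in either library, with Benjamini-Hochberg adjustment. Calls needed an adjusted p-value no higher than 0.001 and a 2-fold ratio on TPM + 0.1, which understates the change of low genes. edgeR (4.0.16, R 4.3.3) was used with TMM, filterByExpr and the quasi-likelihood test over all genes, and DESeq2 (1.42.0) as an alternative. The scripts were tested on simulated data. Samples are separate libraries, and p-values between 2 libraries measure the sampling of reads alone. Genes were named by a fixed rule: the highest and lowest 5 in pUC19, each called gene, the 5 most steadily lower and higher, the 5 smallest p per direction in each edgeR fit, the MRPS18 paralogs, MRPL12, MRPS16 and the noncoding rows; from the lists, the extremes, with the regulators in full. MRPL51 and MRPL16, and in the lists LRPPRC and RNMTL1 where not an extreme, were named after their values were seen. Positions came from GENCODE v44 on GRCh37 and promoter letters from RefSeq on GRCh38.p14. Intervals cover counting error only. Protein sequence features were not analysed here, and the comparison of the synthetases between fusions is not reported here.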

Additional observations from a re-analysis of the deposited data

Results flagged for a closer look

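MRPS30 differed between the constructs with and without a de novo methyltransferase domain, with a log2 fold change of 0.66 (SE 0.15, adjusted p = 0.027, edgeR). It was higher in DNMT3A and in DNMT3B, which are different constructs with 1 library each, and pUC19 fell between the 2 pairs. The call was lost without DNMT3A and without DNMT3B. MRPS24 differed between fusions by the exact test between libraries, with a log2 ratio of 1.44 for DNMT1 over EGFP and of 1.02 for DNMT3A over EGFP, and it lay above pUC19 in one and below it in the other. No group held enough libraries for a search for libraries that stand apart within a group.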

How the results depend on the processing

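Counts of called genes were small and moved with the settings. In DNMT1 against pUC19 the 2 calls became 1 with TMM scaling, 0 with an assumed coefficient of variation of 0.2 and 10 at a fold of 1.5. In DNMT3A the single call was lost (0) with TMM scaling, without the DNMT1, DNMT3A and DNMT3B rows that take up plasmid reads, with the assumed variation and after thinning to the smallest total, and became 10 at a fold of 1.5. In DNMT3B it was lost (0) without those rows and with the assumed variation, and became 7 at a fold of 1.5. In EGFP the count became 12 at a fold of 1.5. The 2 calls between fusions became 1 with a pseudocount of 1 TPM and after thinning, 0 with the assumed variation and 11 at a fold of 1.5. With the assumed variation and 1 library on each side, changes of this size can hardly pass. The counts of 0 at that setting therefore say little about these genes. The median over all genes in DNMT1 was -0.14, and became -0.017 with TMM scaling, 0.0019 with the length trend subtracted and 0.0091 with GC and length trends subtracted. Beside it, the median log2 ratio of the 77 genes in DNMT1 (-0.21) became -0.086 with TMM scaling, -0.087 with the length trend subtracted and -0.054 with GC and length trends subtracted. The last correction, chosen after seeing the data, turned the median in DNMT3A from -0.14 to 0.010, beside 0.0081 over all genes. The 46 genes below pUC19 in all 4 fusions became 29 with GC and length trends subtracted, and the 9 above it became 17 with the length trend and 14 with both trends subtracted, settings added after seeing the data. With DESeq2 the count against pUC19 was 1 in place of 0. In the comparison of DNMT3A and DNMT3B with DNMT1 and EGFP the count of 1 became 4 with a length offset and 3 with a GC and length offset, the latter also chosen after seeing the data (13.4% and 15.6% of all genes). Leaving out 1 library left a lone library in 1 arm. The count fell without DNMT3A or DNMT3B and rose without DNMT1 or EGFP, and so did the count over all genes. The medians were then -0.044 to 0.11. The lone library left in an arm is assumed to vary like the others, and the cause of these moves was not tested. No paired analysis was possible because each group had 1 library. With 1 library per group, depth resolves small differences between libraries and cannot show how cultures vary.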
